A study of Nicotiana tabacum with 21 samples.

Results

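Transcripts of NtGH3.1, which encode auxin-conjugating enzymes, were followed in 4 tobacco (Nicotiana tabacum) suspension lines. The 4 copies examined were NtGH3.1aT (Nitab4.5_0001480g0060.1, 1728 bases), NtGH3.1aS (Nitab4.5_0010275g0010.1, 1731 bases), NtGH3.1bT2 (Nitab4.5_0000284g0040.1, 1736 bases) and NtGH3.1bS1 (Nitab4.5_0001119g0070.1, 1800 bases). They were taken by these IDs from 69491 transcripts in each library, and all 4 were among the 49980 whose group mean exceeded 0.5 TPM in 1 or more groups. TPM is a transcript's share of all transcript copies of a library after its reads are divided by its length, so that levels of different transcripts can be compared. The letters T and S stand for the subgenomes that tobacco received from the ancestors of N. tomentosiformis and N. sylvestris. RNA-seq libraries of 7 groups, each of 3 cultures numbered as biological replicates, were compared.

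BY-2 (cultivar Bright Yellow 2) depends on supplied auxin and grew with 0.2 mg/l of the synthetic auxin 2,4-D. BY-2H is an auxin-autonomous line of the same cultivar, kept in Murashige and Skoog medium with no auxin. VBI-0 (cultivar Virginia Bright Italia) grew in modified Heller medium with 1 mg/l 2,4-D and 1 mg/l NAA, another synthetic auxin, and VBI-2 is its auxin-autonomous counterpart, kept in Heller medium without them. Cells were collected in the exponential phase at 3 d and in the stationary phase at 10 d after subculture, and the sources differ between 7 and 10 d for stationary BY-2. BY-2 was examined in the stationary phase, and its exponential phase was not analysed here. All lines were grown in the dark, and no agent other than auxin was applied. BY-2H was sequenced as 150 bp pairs by Novogene and the 3 other lines as 50 bp single reads by GATC Biotech, so that line, auxin supply, company and read type cannot be told apart in a comparison of BY-2H with another line. Line and auxin supply also change together between VBI-2 and VBI-0. They cannot be told apart in their levels or in the difference of their phase effects.

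GH3 proteins are acyl acid amido synthetases. Members of the group to which NtGH3.1 belongs join indole-3-acetic acid (IAA), the main natural auxin, to amino acids such as aspartate and glutamate, which takes IAA out of the active pool. In Arabidopsis and other plants many GH3 genes are rapidly transcribed after auxin is applied, and they are therefore used as markers of the auxin response as well as being part of auxin inactivation. The enzymes act alongside IAA oxidation, glycosylation and methylation, and amidohydrolases release IAA from some of the conjugates.

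The libraries held 10545447 to 22564711 estimated reads (read pairs in BY-2H). NtTIR1T, an auxin receptor transcript, had 1179 and 1247 TPM in exponential and stationary BY-2H against 7.84 in BY-2, which checks the line labels of BY-2H. The 3 BY-2 libraries differed from each other more than the replicates of the other groups did, with a chi-square per degree of freedom between read counts of 31.1 to 34.5 for its pairs against 2.05 to 8.66 for pairs elsewhere. Replicate 3 was the highest of them for all 4 copies, at 4.75 times the mean of replicates 1 and 2 for NtGH3.1aT, 2.04 times for NtGH3.1aS, 4.16 times for NtGH3.1bT2 and 3.20 times for NtGH3.1bS1, and for NtGH3.1bS1 replicate 2 differed from replicate 1 by a larger ratio than replicate 3 did. The median over 32134 transcripts was 1.17 times. Of the references used in RT-qPCR, a transcript for elongation factor 1a was at 1.64 times and an aminopeptidase-like transcript at 1.11 times. Replicate 3 was the highest library for 28 of 38 AUX/IAA, 8 of 16 GH3 and 2 of 11 auxin receptor transcripts, and for 16253 of all 32134. Means and fold changes of BY-2 are therefore also given without replicate 3. This library was picked by the values of the copies themselves, since all 3 pairs of BY-2 libraries differed to a like degree.

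The copies resemble each other, and Salmon divides reads that match several transcripts. In 12 of the 15 libraries where NtGH3.1aT and NtGH3.1aS both had fractional reads, their sum was a whole number within 0.01 reads as it is when 2 copies exchange reads. The same held for NtGH3.1bT2 with NtGH3.1bT1, another copy, in 10 of 13 libraries, and for NtGH3.1bS1 with NtGH3.1bS2crip, a further copy, in 13 of 15. Over the other pairings of the 6 copies the sum was whole in 0 or 1 library. Of the 15 libraries with fractional reads in NtGH3.1aT and NtGH3.1aS, 1 was from BY-2H. For the bT2 and bS1 pairs 0 was from BY-2H, where the b copies had few reads. Exchange of reads was thus seen mostly in the 50 bp libraries, and single copies in BY-2H were not measured in the same way. The division within such a pair is therefore less certain than the sum of the pair, and sums are also given.

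Both NtGH3.1a copies had their lowest level in stationary VBI-2, and their highest means were in auxin-supplied cells, in stationary VBI-0 for NtGH3.1aT and in BY-2 for NtGH3.1aS. In VBI-0, NtGH3.1aT had 37.8, 24.0 and 20.1 TPM in the exponential and 62.0, 59.5 and 64.2 TPM in the stationary phase. In VBI-2 it had 0.992, 0.782 and 0.596 TPM in the exponential and 0.148, 0.158 and 0.150 TPM in the stationary phase. Neither pair of phases overlapped, and the copy was higher in stationary than exponential VBI-0 and lower in stationary than exponential VBI-2. RNA came from whole cultures, so that fewer cells with a transcript and less of it per cell cannot be told apart. In BY-2H the values were 3.62, 2.58 and 2.79 TPM in exponential and 2.07, 2.47 and 2.63 TPM in stationary cells, and these phases overlapped. Stationary BY-2 had 9.28, 7.27 and 39.3 TPM.

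The order of the means of NtGH3.1aT was stationary VBI-0 with 61.9 ± 2.37 TPM (SD, n = 3 for each group mean), exponential VBI-0 with 27.3 ± 9.27, stationary BY-2 with 18.6 ± 18.0, exponential BY-2H with 3.00 ± 0.552, stationary BY-2H with 2.39 ± 0.287, exponential VBI-2 with 0.790 ± 0.198 and stationary VBI-2 with 0.152 ± 0.00549. Neighbours in this order overlapped for exponential VBI-0 and BY-2 and for the BY-2H phases. Without replicate 3 the BY-2 mean was 8.28 TPM, and BY-2 then lay below exponential VBI-0 without overlap. Without replicate 1 or 2 the BY-2 mean was 23.3 or 24.3 TPM, and the overlap remained. The level in stationary VBI-2 rested on 14 reads over 3 libraries (95% exact Poisson interval 7.65 to 23.5, for counting error alone).

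NtGH3.1aS varied less among lines. VBI-0 had 6.09, 4.31 and 4.67 TPM in the exponential and 10.2, 12.9 and 11.0 TPM in the stationary phase, again without overlap. VBI-2 had 6.12, 2.82 and 2.82 TPM in exponential and 0.920, 0.354 and 0.814 TPM in stationary cells. BY-2H held 8.44, 6.96 and 7.32 TPM in the exponential and 7.27, 8.06 and 7.63 TPM in the stationary phase. Stationary VBI-2 thus stood below the 6 other groups, whose means ran from 3.92 ± 1.90 TPM in exponential VBI-2 to 13.3 ± 6.23 TPM in BY-2 (11.9, 7.84 and 20.1 TPM). Both BY-2H groups, grown without auxin, lay above exponential VBI-0, grown with it, without overlap. BY-2 overlapped stationary VBI-0 and both BY-2H groups, and its mean without replicate 3 was 9.86 TPM. The BY-2H phases overlapped each other, as did exponential VBI-0 and exponential VBI-2.

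**Figure D1:**
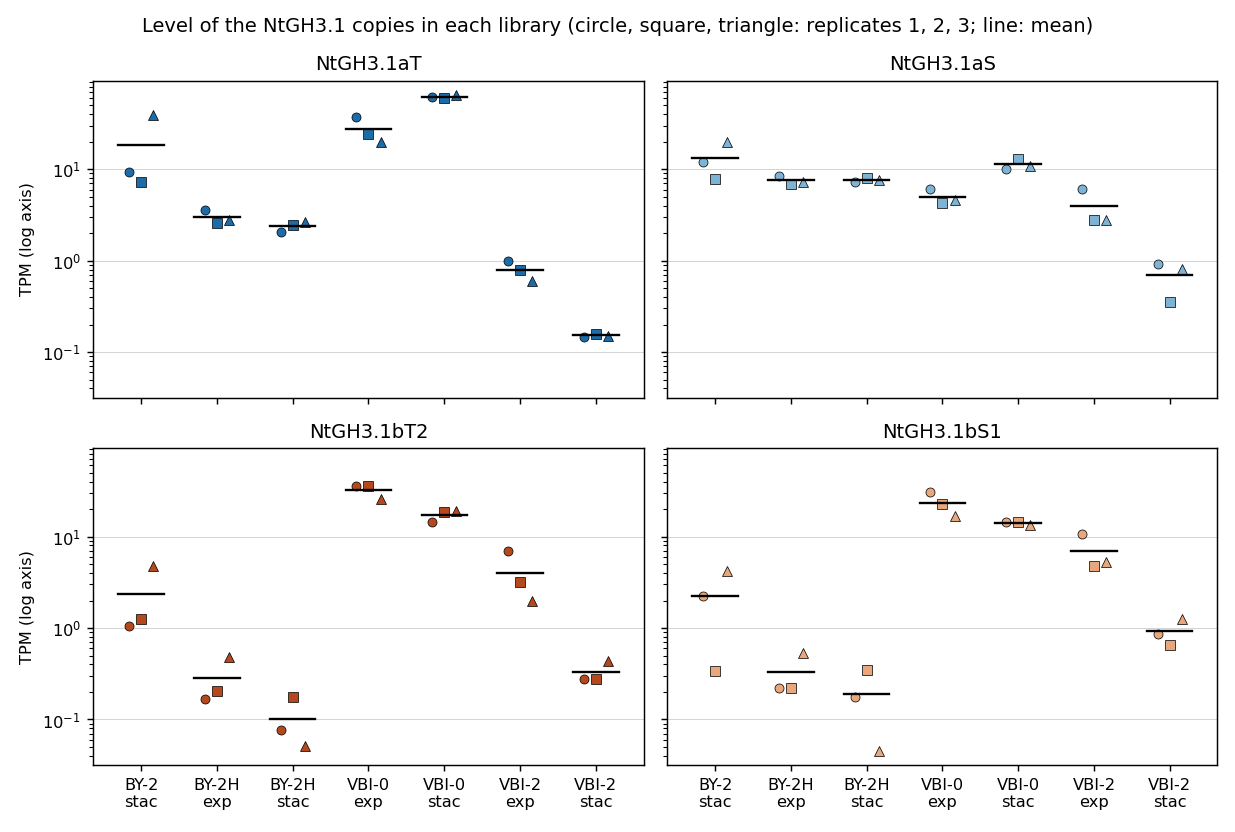
TPM on a log axis of the 4 NtGH3.1 copies in the 21 libraries, by line and growth phase; symbols are replicates and lines are group means. NtGH3.1aT spans 0.148 to 64.2 TPM, and the points of stationary VBI-2 lie below those of exponential VBI-2 in each panel.

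The NtGH3.1b copies were concentrated in VBI-0 and close to the limit of detection in BY-2H. NtGH3.1bT2 had 35.5, 35.9 and 25.8 TPM in exponential and 14.4, 18.7 and 19.0 TPM in stationary VBI-0, so that it was lower in older cells where NtGH3.1aT was higher. In VBI-2 it had 6.95, 3.19 and 1.97 TPM in the exponential and 0.277, 0.280 and 0.432 TPM in the stationary phase. BY-2 held 1.06, 1.24 and 4.79 TPM. In BY-2H it had 0.166, 0.207 and 0.481 TPM in exponential and 0.0774, 0.174 and 0.0512 TPM in stationary cells. The last of these groups rested on 7 read pairs (95% interval 2.81 to 14.4), and no difference between the BY-2H phases was detectable at this depth.

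NtGH3.1bS1 followed the same order in the VBI lines. It had 30.4, 22.5 and 16.9 TPM in exponential and 14.4, 14.3 and 13.4 TPM in stationary VBI-0. VBI-2 had 10.7, 4.80 and 5.33 TPM in the exponential and 0.867, 0.650 and 1.25 TPM in the stationary phase. In neither line did the phases overlap. BY-2 had 2.26, 0.339 and 4.16 TPM, a spread that overlapped stationary VBI-2. BY-2H had 0.222, 0.221 and 0.536 TPM in exponential and 0.176, 0.346 and 0.0452 TPM in stationary cells, from 26 and 15 read pairs. Both b copies had the same order of group means, from exponential VBI-0 through stationary VBI-0, exponential VBI-2, BY-2, stationary VBI-2 and exponential BY-2H to stationary BY-2H. Among neighbours in this order, NtGH3.1bT2 overlapped between exponential VBI-2 and BY-2, between stationary VBI-2 and exponential BY-2H, and between the BY-2H phases. Without replicate 3 its BY-2 mean was 1.15 instead of 2.37 TPM, and BY-2 no longer overlapped exponential VBI-2. Without replicate 1 or 2 that mean was 3.02 or 2.93 TPM, and the overlap remained. NtGH3.1bS1 overlapped between BY-2 and stationary VBI-2 and between the BY-2H phases, and without replicate 3 its mean of 2.25 TPM in BY-2 comes down to libraries at 2.26 and 0.339 TPM.

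The phase effect in VBI-0 had opposite signs in the a and b copies. A transcript was called changed at an adjusted p of at most 0.05 (edgeR quasi-likelihood test, Benjamini-Hochberg adjustment over all transcripts tested) with a log2 fold change of 1 or more in either direction. Both a copies were upregulated in stationary against exponential VBI-0, where 1.97% of the 48440 transcripts tested were called higher. NtGH3.1aT rose by a log2 fold change of 1.14 ± 0.15 (SE, as for all log2 fold changes, edgeR adjusted p = 1.34e-05), and NtGH3.1aS by 1.14 ± 0.23 (adjusted p = 0.00129). NtGH3.1bT2 with a log2 fold change of -0.97 ± 0.24 (adjusted p = 0.00659) and NtGH3.1bS1 with -0.76 ± 0.22 (adjusted p = 0.0198) passed the p limit and not the fold limit, so they were not called. Without the fold limit both would be called lower, as were 10.2% of the transcripts. The aT call was lost without replicate 3 of exponential VBI-0, at 0.93, and bT2 was called lower without that library, at -1.15, or without replicate 2 or 3 of stationary VBI-0, at -1.03 each.

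All 4 copies were downregulated in stationary against exponential VBI-2, where 0.603% of the transcripts tested were called lower. The log2 fold changes were -2.45 ± 0.45 for NtGH3.1aT (edgeR adjusted p = 0.00167), -2.61 ± 0.32 for NtGH3.1aS (3.37e-05), -3.65 ± 0.43 for NtGH3.1bT2 (2.71e-05) and -2.99 ± 0.31 for NtGH3.1bS1 (6.08e-06). As ratios of mean TPM these were drops of 5.19, 5.63, 12.2 and 7.53 times. The 3 stationary libraries were below the 3 exponential ones for each copy. With log2(TPM + 0.5) and limma, which compresses changes near 0.5 TPM, NtGH3.1aT had a log2 difference of -0.97 and was not called.

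In BY-2H, 0 of the 4 copies was called by edgeR, DESeq2 or limma, and 0 had an unadjusted edgeR p under 0.05. By edgeR 2.68% of the 44765 transcripts tested were called. The log2 fold changes were -0.34 ± 0.21 for NtGH3.1aT (edgeR adjusted p = 0.368), 0.01 ± 0.13 for NtGH3.1aS (0.989), -1.41 ± 0.87 for NtGH3.1bT2 (0.377) and -0.73 ± 0.68 for NtGH3.1bS1 (0.612). The a copies were thus measured with a small error in BY-2H, while the errors of the b copies leave room for changes as large as the fold limit.

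**Figure D2:**
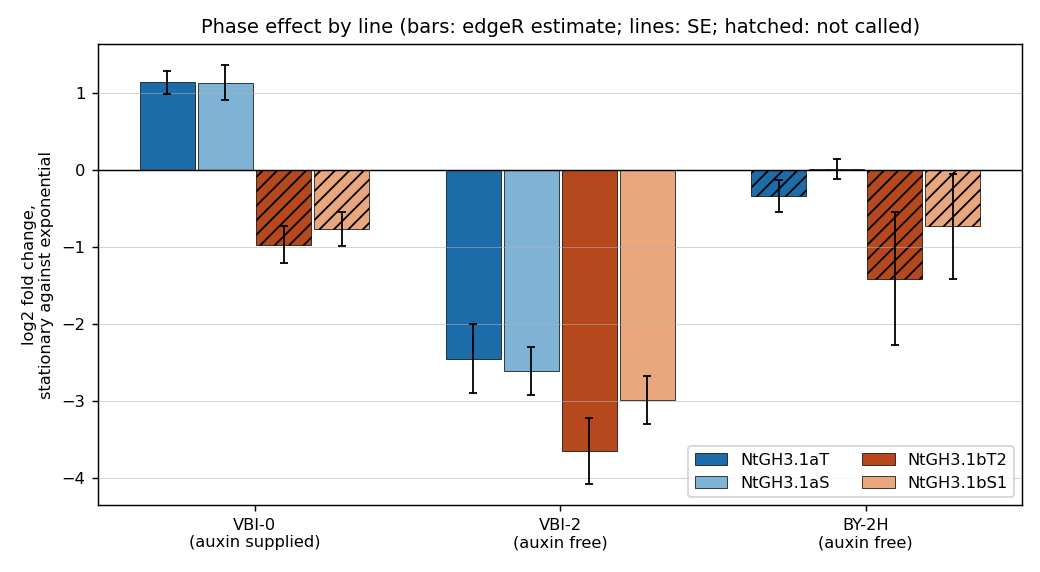
Log2 fold change of stationary against exponential cells for the 4 copies in VBI-0, VBI-2 and BY-2H. Bars are edgeR estimates, lines are the approximate SE, and hatched bars were not called. In VBI-2 the 4 bars lie between -2.45 and -3.65, and in VBI-0 the a copies point up at 1.14 each.

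The difference between the phase effects of lines was tested directly, at the adjusted p alone. VBI-2 differed from VBI-0 in all 4 copies, beside 6.82% of all transcripts, with a difference on the log2 scale of -3.59 for NtGH3.1aT (edgeR adjusted p = 6.75e-05), -3.75 for NtGH3.1aS (8.58e-06), -2.68 for NtGH3.1bT2 (0.00317) and -2.22 for NtGH3.1bS1 (0.00140). With limma on log2(TPM + 0.5) the bT2 difference of -1.43 (limma adjusted p = 0.114) and the bS1 difference of -1.66 (0.0511) did not pass. BY-2H differed from VBI-0 in the a copies, by -1.51 for NtGH3.1aT (0.000253) and -1.15 for NtGH3.1aS (0.000106), beside 11.9% of all transcripts. With all 21 libraries in one fit neither a copy passed (adjusted p = 0.140 and 0.103). The b copies did not pass, at -0.46 for NtGH3.1bT2 (0.826) and 0.02 for NtGH3.1bS1 (1.00).

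BY-2H also differed from VBI-2 in the a copies, by 2.10 for NtGH3.1aT (edgeR adjusted p = 0.00295) and 2.62 for NtGH3.1aS (6.77e-06), beside 6.36% of all transcripts. The aT difference did not pass with all 21 libraries in one fit, at 2.07 (adjusted p = 0.343), or with limma on log2(TPM + 0.5), at 0.70 (0.122). NtGH3.1bT2 at 2.22 (0.263) and NtGH3.1bS1 at 2.26 (0.0704) did not pass. The bS1 difference passed with DESeq2, at 2.21, and when replicate 3 of either BY-2H group, replicate 3 of stationary VBI-2 or replicate 2 of exponential VBI-2 was left out, at 2.46 to 2.81. Each phase effect compares libraries of 1 line, company and read type.

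Against VBI-0, the autonomous VBI-2 line had lower levels of most copies. VBI-0 was supplied with auxin and VBI-2 was not, so that line and auxin supply cannot be told apart here. In exponential cells, 3 of the 4 copies were called lower, beside 21.5% of the 48440 transcripts. The log2 fold changes were -5.26 ± 0.21 for NtGH3.1aT (edgeR adjusted p = 2.12e-14), -3.10 ± 0.27 for NtGH3.1bT2 (2.95e-09) and -1.93 ± 0.23 for NtGH3.1bS1 (3.91e-07). NtGH3.1aS was not called, at -0.49 ± 0.24 (0.0840). In stationary cells all 4 were called lower, beside 22.3% of transcripts.

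In stationary VBI-2 the log2 fold changes relative to VBI-0 were -8.85 ± 0.27 for NtGH3.1aT (edgeR adjusted p = 3.73e-16), -4.24 ± 0.30 for NtGH3.1aS (1.29e-10), -5.78 ± 0.39 for NtGH3.1bT2 (5.49e-11) and -4.15 ± 0.30 for NtGH3.1bS1 (1.91e-10). NtGH3.1aT rested on 14 reads in stationary VBI-2 (95% Poisson interval 7.65 to 23.5), a counting error wider than its ± shows. By mean TPM, NtGH3.1aT was 407 times, NtGH3.1bT2 52.7 times, NtGH3.1aS 16.3 times and NtGH3.1bS1 15.2 times as high in VBI-0. The elongation factor 1a transcript was also lower in VBI-2, with 476 against 1366 TPM in exponential and 418 against 914 TPM in stationary cells, while the aminopeptidase-like transcript was higher in VBI-2, with 64.7 against 46.9 TPM and 74.8 against 52.3 TPM.

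Stationary BY-2H had lower levels of all 4 copies than stationary BY-2, beside 22.8% of the 47271 transcripts tested. The log2 fold changes were -3.27 ± 0.53 for NtGH3.1aT (edgeR adjusted p = 0.000449), -1.10 ± 0.28 for NtGH3.1aS (0.00667), -4.72 ± 0.72 for NtGH3.1bT2 (0.000280) and -3.86 ± 0.82 for NtGH3.1bS1 (0.00234). Without replicate 3 of BY-2 they were -2.23, -0.78, -3.81 and -3.20, and NtGH3.1aS was then under the fold limit (adjusted p = 0.0156) while the others were still called. The copies' values in BY-2H and BY-2 did not overlap for aT and bT2, did for aS, and just overlapped for bS1, with 0.339 TPM in the lowest BY-2 and 0.346 in the highest BY-2H library.

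The auxin-supplied lines differed from each other as well. In stationary cells, BY-2 against VBI-0 had 3 of the 4 copies lower, beside 25.6% of the 48219 transcripts tested. The log2 fold changes were -1.57 ± 0.49 for NtGH3.1aT (edgeR adjusted p = 0.0198), -2.68 ± 0.45 for NtGH3.1bT2 (0.000656) and -2.46 ± 0.56 for NtGH3.1bS1 (0.00382), and NtGH3.1aS was not called at 0.41 ± 0.28 (0.237). Without replicate 3 of BY-2 NtGH3.1bT2 was at -3.62, NtGH3.1bS1 at -3.12 and NtGH3.1aS at 0.066. NtGH3.1aT was -2.62 without that library, and its call was lost without replicate 1, at -1.30 (adjusted p = 0.0639). Cultivar, medium and amount of auxin differ between these lines and cannot be told apart.

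**Figure D3:**
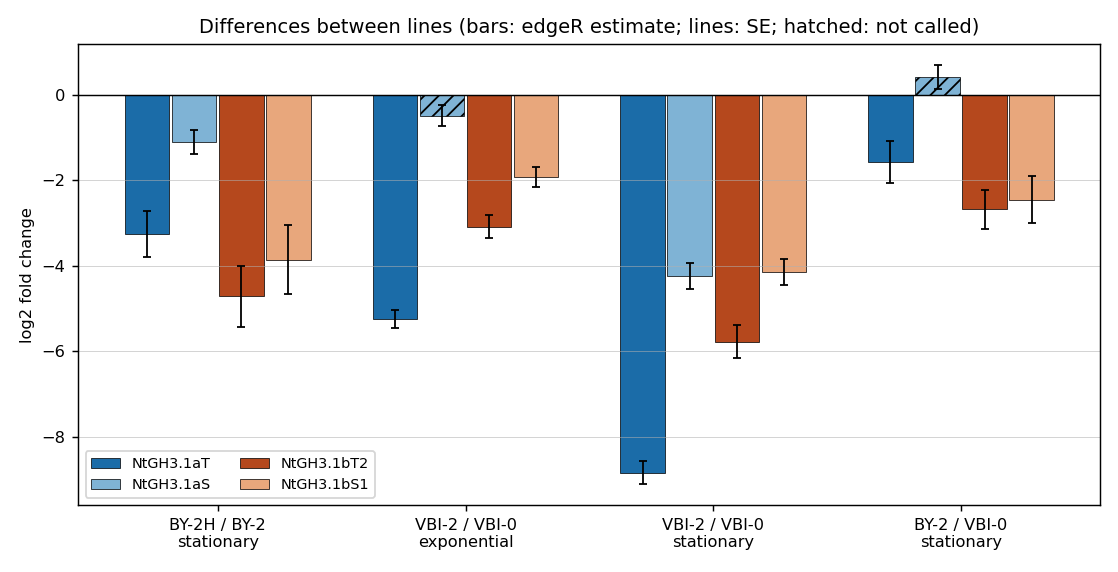
Log2 fold change of the 4 copies in the comparisons of lines. Bars are edgeR estimates, lines are the approximate SE, and hatched bars were not called. NtGH3.1aS is the copy left uncalled in exponential VBI-2 against VBI-0 and in BY-2 against VBI-0.

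The balance of the T and S copies differed between lines. NtGH3.1aT made up 84.0% ± 2.56 of the TPM of the NtGH3.1a pair in exponential and 84.5% ± 2.02 in stationary VBI-0. It was 17.7% ± 3.89 and 20.1% ± 9.39 in VBI-2, 28.2% ± 1.60 and 23.8% ± 1.74 in BY-2H, and 52.7% ± 11.9 in BY-2. The lowest VBI-0 library had 81.2% and the highest VBI-2 library 30.9%, so the S copy led in both autonomous lines and the T copy in VBI-0. In auxin-supplied BY-2 the libraries had 43.9%, 48.1% and 66.2%, so the S copy also led in replicates 1 and 2. Without replicate 3 the BY-2 mean was 46.0%. Between phases of a line the means differed by no more than the spread in VBI-0 and VBI-2.

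Between NtGH3.1bT2 and NtGH3.1bS1 alone the balance shifted less. NtGH3.1bT2 made up 58.6% ± 4.11 of the pair in exponential VBI-0 and on average 55.1% in stationary VBI-0, with replicate 1 the lowest and replicates 2 and 3 at 56.6% and 58.6%, 35.4% ± 7.32 and 26.6% ± 3.06 in VBI-2, 46.2% ± 2.93 and 39.1% ± 12.3 in BY-2H and 54.7% ± 23.3 in BY-2. These shares are descriptions. They depend on how Salmon divided shared reads, since aT and aS exchange reads with each other, bT2 with NtGH3.1bT1 and bS1 with NtGH3.1bS2crip. This exchange was seen mostly outside BY-2H, so the shares of BY-2H and of the other lines are not measured alike. The b share leaves out NtGH3.1bT1 and NtGH3.1bS2crip. With them added, the mean TPM of the T copies was below that of the S copies in both VBI lines. In BY-2H the T copies were above, at 1.16 against 0.513 TPM in exponential and 0.740 against 0.527 TPM in stationary cells. In BY-2 they had 6.75 against 3.73 TPM. The ranges of the T and S sums overlapped in BY-2, with 3.02 to 13.0 against 0.829 to 7.34 TPM. They also overlapped in stationary BY-2H and exponential VBI-0, and in none of the other groups.

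**Figure D4:**
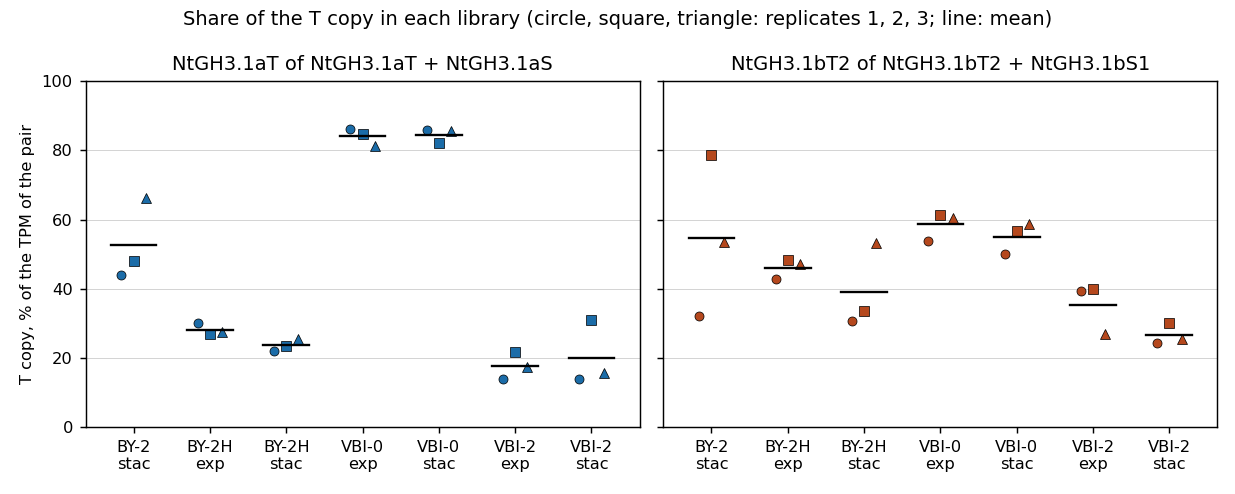
Share of the T copy in the TPM of the NtGH3.1a pair (left) and of the NtGH3.1bT2 and NtGH3.1bS1 pair (right), in percent, in each library; lines are group means. The VBI-0 libraries lie at 81.2% or more in the left panel and the VBI-2 libraries at 30.9% or less.

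Sums of the copies that exchange reads depend less on the division of reads. NtGH3.1aT plus NtGH3.1aS was 32.3 ± 10.1 and 73.3 ± 1.67 TPM in exponential and stationary VBI-0, 4.71 ± 2.08 and 0.848 ± 0.295 in VBI-2, 10.6 ± 1.32 and 10.0 ± 0.624 in BY-2H and 31.9 ± 24.0 in BY-2, or 18.1 without replicate 3. NtGH3.1bT2 plus NtGH3.1bT1 was 63.7 to 75.6 TPM over the 3 exponential and 26.1 to 35.5 TPM over the 3 stationary VBI-0 libraries, against 4.46 ± 2.68 and 0.384 ± 0.159 TPM in the phases of VBI-2, 1.16 ± 0.163 and 0.740 ± 0.285 TPM in those of BY-2H and 6.75 ± 5.43 TPM in BY-2, or 3.63 without replicate 3. Stationary VBI-2 thus had the lowest mean of this sum, whereas for NtGH3.1bT2 alone both BY-2H groups were lower. NtGH3.1bS1 plus NtGH3.1bS2crip was 78.2 ± 18.5 and 59.2 ± 3.13 TPM in the phases of VBI-0, against 10.8 ± 5.34 and 2.44 ± 1.11 TPM for VBI-2, 0.513 ± 0.127 and 0.527 ± 0.185 TPM for BY-2H and 3.73 ± 3.31 TPM for BY-2, or 1.93 without replicate 3. Each of these sums was lower in stationary than exponential VBI-2 without overlap. In VBI-0 the a sum was higher and the bT2 sum lower in the stationary phase without overlap, while the bS1 sum overlapped between the phases, with 59.1 to 95.9 TPM in exponential and 56.6 to 62.7 TPM in stationary cells.

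Added up, the 6 copies had 181 ± 34.0 and 163 ± 3.41 TPM in exponential and stationary VBI-0, whose ranges overlapped, 13.4 to 31.5 TPM over the exponential libraries and 3.67 ± 1.40 TPM in the stationary phase of VBI-2, 12.2 ± 1.29 and 11.3 ± 0.935 TPM in BY-2H and 42.4 ± 32.7 TPM in BY-2, or 23.7 without replicate 3. The ranges of exponential VBI-2 and exponential BY-2H overlapped, while stationary VBI-2 lay below stationary BY-2H.

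NtGH3.1bT1 and NtGH3.1bS2crip were called lower in stationary against exponential VBI-2, with log2 fold changes of -2.91 ± 0.55 (edgeR adjusted p = 0.00221) and -1.39 ± 0.32 (0.0129). In VBI-0 NtGH3.1bT1 fell by 1.51 ± 0.14 on the log2 scale (2.57e-07), beside 2.49% of transcripts called lower, and NtGH3.1bS2crip had -0.33 ± 0.22 (0.349) and was not called. In BY-2H neither was called, at -0.42 ± 0.40 (0.634) for NtGH3.1bT1 and 0.82 ± 0.69 (0.568) for NtGH3.1bS2crip. NtGH3.1bT1 was higher in exponential BY-2H than in exponential VBI-2, with 0.871 ± 0.135 against 0.419 ± 0.172 TPM, an order opposite to that of NtGH3.1bT2 and NtGH3.1bS1. It exchanges reads with NtGH3.1bT2, so this order depends on the division of reads. The sum of NtGH3.1bT2 and NtGH3.1bT1 was lower in exponential BY-2H, with 1.16 ± 0.163 against 4.46 ± 2.68 TPM.

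Among 22 transcripts the study lists as amino acid conjugating GH3 genes, 18 were tested in the VBI lines. In the VBI-2 phase comparison 6 were called lower and 0 higher (edgeR), beside 0.603% and 0.993% of all transcripts tested, and the 6 were the NtGH3.1 copies. Of the 12 other GH3 transcripts 0 was called, with a median log2 fold change of -0.77, against a median of -2.76 over the 6 copies and 0.00 over all transcripts tested. NtGH3.6dT, the most abundant of the others, had -0.76 ± 0.12 (edgeR adjusted p = 0.000434), under the fold limit, and NtGH3.6bT had 0.38 ± 0.20 (0.356). NtGH3.6aT was at -2.48 ± 0.76 (0.0653), from 13.0 exponential and 2.0 stationary reads, and NtGH3.6bS at 1.07 ± 0.33 (0.0701). Some of the others had too few reads in VBI-2 for a call, such as NtGH3.6aS with 1.0 and 0.0. The fall was thus not shown to be particular to the NtGH3.1 copies. In the VBI-0 phase comparison 3 of 18 GH3 transcripts were called higher and 1 lower, beside 1.97% and 2.49% of all transcripts. Among these GH3 transcripts, 2 of the higher and the 1 lower were NtGH3.1 copies. In BY-2H 1 of 17 was called higher, as were 1.72% of all transcripts there.

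In the line comparisons 11 of 18 GH3 transcripts were called lower and 0 higher in exponential VBI-2 against VBI-0, and 13 and 0 in the stationary phase, with medians of -1.68 and -3.20. Over all transcripts 21.5% and 22.3% were called lower in these comparisons and 17.1% and 17.7% higher. In stationary BY-2H against BY-2, 12 of 17 were called lower and 1 higher, beside 22.8% and 20.3% of all transcripts. In BY-2 against VBI-0, 5 were called lower, all of them NtGH3.1 copies, and 4 higher, all of them other GH3 transcripts, beside 25.6% and 24.7%. NtGH3.6aS was one of the latter, with a log2 fold change of 6.06 ± 0.76 (edgeR adjusted p = 9.88e-05).

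**Figure D5:**
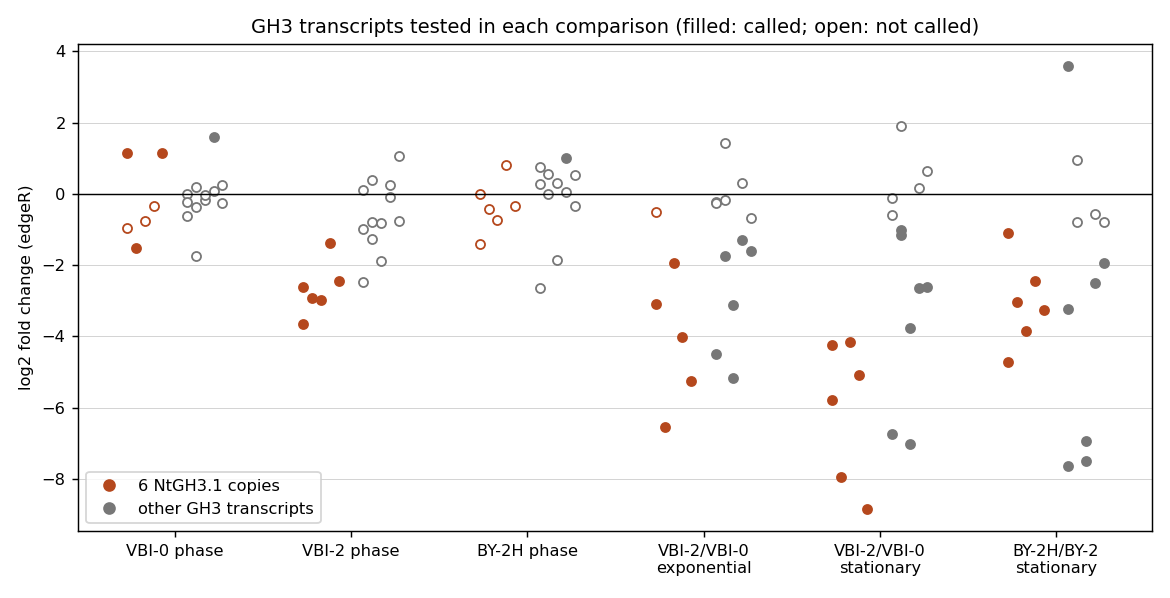
Log2 fold change of each tested GH3 transcript in 6 comparisons, with the 6 NtGH3.1 copies and the other GH3 transcripts set apart; filled points were called by edgeR. In the VBI-2 phase comparison the 6 copies are filled and none of the 12 others is, some of which had few reads in VBI-2.

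Among other routes of IAA inactivation, 1 of 2 oxidation and 1 of 2 glycosylation transcripts were called lower in the VBI-2 phase comparison. Over all transcripts tested 0.603% were called lower and 0.993% higher there. NtDAO1T, a homologue of the dioxygenase that oxidises IAA, fell by 2.05 ± 0.23 on the log2 scale (edgeR adjusted p = 1.64e-05), and NtUGT3T, from the glycosylation list, by 1.61 ± 0.20 (3.24e-05). Of 4 IAA methylation transcripts and of 12 tested amidohydrolase-type transcripts for conjugate hydrolysis, 0 was called, which is near the share over all transcripts. Of the methylation transcripts, NtIAMT1aS had 0.0975 and 0.0776 TPM in exponential and stationary VBI-2. NtIAMT1aT had 0.0185 and 0.0 TPM, and both were too low there for a change to be detected. NtUGT3T also fell in stationary VBI-0, by 1.44 ± 0.17 (6.08e-06), where NtDAO1T had -0.18 ± 0.21 (0.626). In BY-2H against BY-2, NtDAO1T was higher by 1.25 ± 0.26 (0.00206), opposite in sign to the 4 NtGH3.1 copies.

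Of the auxin response lists, 8 of 47 AUX/IAA transcripts, which encode repressors of auxin signalling, were called lower and 0 higher in stationary against exponential VBI-2, beside 0.603% of all transcripts called lower. In VBI-2 against VBI-0, 36 of 47 were called lower and 4 higher in exponential cells, and 39 and 4 in stationary cells, beside 21.5% and 22.3% of all transcripts called lower. SAUR-like transcripts had 0 of 26 called in the VBI-2 phase comparison, auxin receptors 0 of 13, and biosynthesis 1 of 15 lower.

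The pattern over the 21 libraries was compared by Pearson's r of log2(TPM + 0.5), as a description over libraries that share lines and companies, among 75 auxin-related named transcripts. The closest to NtGH3.1aT were NtGH3.6dT (r = 0.950), NtLAX1bS (0.936) and NtGH3.1bT1 (0.918). NtGH3.1aS was closest to NtLAX3S (0.912), NtLAX3T (0.882) and NtIAMT1aS (0.756). NtGH3.1bT2 and NtGH3.1bS1 were closest to each other (0.967) and next to NtGH3.1bS2crip (0.960 and 0.947), followed by NtABCB15T (0.919) for bT2 and NtLAX1bT (0.896) for bS1. By contrast r was 0.720 between NtGH3.1aT and NtGH3.1aS, and 0.273 and 0.156 between NtGH3.1aS and the b copies bT2 and bS1. Among all 49979 other detected transcripts, NtGH3.1bT1 ranked 284 in likeness to NtGH3.1aT, and NtGH3.1aS ranked 3672. Many transcripts outside the 75 were thus as much like NtGH3.1aT. NtGH3.1bT2 and NtGH3.1bS1 ranked 1 for each other.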

How the data were processed

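RNA-seq of 21 libraries (7 groups of 3) was used. The authors quantified reads with Salmon 1.3.0 against the Nitab4.5 tobacco transcripts; the submitters' processing notes also name Trimmomatic. The deposited tables hold, per library, estimated counts of reads and TPM, with an effective length per transcript; reads matching several transcripts are divided among them, and nothing is scaled between libraries. Effective lengths of NtGH3.1aT ran from 913 to 1468 bases. Lengths were multiples of 3 for 83.7% of transcripts.

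Estimated reads were rounded, normalized by TMM and tested with edgeR 4.0.16 (quasi-likelihood) in R 4.3.3, for transcripts with mean TPM above 0.5 in at least 1 group. The 4 VBI groups were fitted together, other comparisons on the groups compared. The estimated reads per library gave the depth. Alternatives were DESeq2 1.42.0, limma 3.58.1 on log2(TPM + 0.5) and log2(TPM + 1), other scaling, filters and fits, and leaving out each replicate. Means and sums of BY-2 without single libraries were added after the data had been seen. Replicates are numbered as biological replicates in the labels. Same-numbered cultures did not deviate together. Code was tested on simulated data.

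The members and lists (GH3, glycosylation, oxidation, methylation, hydrolysis, AUX/IAA, SAUR-like, receptors, biosynthesis, other auxin genes), with classes taken from the study's list of auxin-related genes, were chosen with earlier results of these data known. Named genes were the 4 copies, the other NtGH3.1 copies, the most abundant transcripts of each list where a result used them, and the 3 most alike in pattern. The closest tobacco RefSeq symbols, matched through the study's gene list, were LOC107794279 for both a copies, LOC107780689 for NtGH3.1bT2 and LOC107803574 for NtGH3.1bS1; coordinates and sequences were not used here, and the planned promoter motif count was not run.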

Additional observations from a re-analysis of the deposited data

Results flagged for a closer look

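The phase effect, stationary against exponential, differed between lines in 8 tests of the difference itself (edgeR, adjusted p at most 0.05). VBI-2 minus VBI-0 gave -3.59 for NtGH3.1aT, -3.75 for NtGH3.1aS, -2.68 for NtGH3.1bT2 and -2.22 for NtGH3.1bS1 on the log2 scale. BY-2H minus VBI-0 gave -1.51 for NtGH3.1aT and -1.15 for NtGH3.1aS. BY-2H minus VBI-2 gave 2.10 for NtGH3.1aT and 2.62 for NtGH3.1aS. The VBI-0 effects enter both of the first sets, and the VBI-2 effects the first and the last, so the sets are not independent of each other. With all 21 libraries in one fit the BY-2H minus VBI-0 differences of both a copies and the BY-2H minus VBI-2 difference of NtGH3.1aT did not pass. With limma the NtGH3.1aT difference of BY-2H minus VBI-2 and the VBI differences of NtGH3.1bT2 and NtGH3.1bS1 did not pass. A formal test for an outlying sample was not run in groups of 3 libraries.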

How the results depend on the processing

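Of 809 values of the 4 copies under alternatives, over 40 results, 759 kept direction and call; 23 results did so under every alternative run. Causes were not tested except where the construction of the alternative shows them. With no fold limit in the VBI-0 phase comparison NtGH3.1bT2 (-0.97) and NtGH3.1bS1 (-0.76) were called, and bT2 also with an effective length offset (-1.03). With limma on log2(TPM + 0.5) and log2(TPM + 1), calls were lost for NtGH3.1aT in the VBI-2 phase comparison (-0.97, -0.63), for the VBI difference of NtGH3.1bT2 (-1.43, -0.94) and NtGH3.1bS1 (-1.66, -1.33), for BY-2H against BY-2 of NtGH3.1aS (-0.66, -0.63) and NtGH3.1bS1 (-1.70, -1.26), and for BY-2H minus VBI-2 of NtGH3.1aT (0.70, 0.40). There calls were gained in BY-2H minus VBI-2 for NtGH3.1bT2 (1.93, 1.58) and NtGH3.1bS1 (2.06, 1.83), and the BY-2H minus VBI-0 value of NtGH3.1bT2 changed sign (0.51, 0.64). With all 21 libraries in one fit NtGH3.1aT was not called in the VBI-2 phase comparison (-2.44), nor in BY-2H minus VBI-0 (-1.5) and BY-2H minus VBI-2 (2.07), NtGH3.1aS was not called in BY-2H minus VBI-0 (-1.14), and its BY-2H phase effect changed sign (-0.019). NtGH3.1bS1 passed in BY-2H minus VBI-2 with DESeq2 (2.21) and with no filter (2.22).

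The replicate block, fitted although the numbers do not pair the cultures (correlations of same-numbered deviations from -0.19 to 0.21), gave NtGH3.1bS1 2.19 in BY-2H minus VBI-2, a call, and -0.034 in BY-2H minus VBI-0, a change of sign; it changed no other call of the 4 copies.

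Leaving out 1 replicate at a time, values ran from 0.93 to 1.39 (NtGH3.1aT) and -1.15 to -0.80 (NtGH3.1bT2) in the VBI-0 phase comparison, -0.055 to 0.097 (NtGH3.1aS) in BY-2H, -1.34 to -0.78 (NtGH3.1aS) in BY-2H against BY-2, -2.62 to -1.21 (NtGH3.1aT) in BY-2 against VBI-0, -1.07 to 0.12 (NtGH3.1bT2) and -0.70 to 0.57 (NtGH3.1bS1) in BY-2H minus VBI-0, and 1.51 to 2.81 (NtGH3.1bS1) in BY-2H minus VBI-2.

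Counts of all transcripts called moved by over 1.5 times with no fold limit, from 2157 to 8764 (VBI-0 phase), 481 higher and 292 lower to 2432 in all (VBI-2 phase), 1200 to 4668 (BY-2H phase), 18666 to 29425 and 19350 to 29962 (VBI-2 against VBI-0, exponential and stationary). With limma they were 1183 (VBI-0 phase) and 425 (VBI-2 phase) at a pseudocount of 1, 711 and 569 (BY-2H phase) at 0.5 and 1, and 1972 against 3303 (VBI difference) at 0.5. With 21 libraries in one fit they were 478 (VBI-2 phase), 570 (BY-2H phase), 1157 (VBI difference), 2217 against 5840 (BY-2H minus VBI-0) and 929 against 3117 (BY-2H minus VBI-2).

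As a share of reads, NtGH3.1bT2 was 43.1% of its pair in exponential BY-2H and 54.5% and 50.5% in exponential and stationary VBI-0. The stationary VBI-0 to VBI-2 ratio of NtGH3.1aT was 484 by normalized CPM. Low reads limit the b copies in BY-2H and NtGH3.1aT in stationary VBI-2.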
